A study of Mus musculus with 3 samples.

Results

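p53, encoded by *Trp53*, and 9 of its direct targets (*Mdm2*, *Cdkn1a*, *Trp53inp1*, *Ccng1*, *Ddb2*, *Eda2r*, *Bbc3*, *Gadd45a* and *Bax*) were followed across 3 RNA-seq libraries of E14 mouse embryonic stem cells (ESCs). The members were taken by gene symbol, and all 10 were found among the 23953 genes of both deposited tables. Each condition has 1 library: WT, Tam (4-OH tamoxifen for 48 h) and DoxTam (4-OH tamoxifen with doxycycline for 48 h). The treated cells are *Oct4* DE (−/−), that is, loxP sites flank the distal enhancer (DE) of *Oct4* on both alleles, so that tamoxifen, through a CreERT2 recombinase brought in by lentivirus, removes it. Doxycycline switches on transgenic mouse *Oct4*. The labels list both inducible constructs for all 3 libraries, WT included, and the edited lines were expanded from clones. The WT cells are described only as wild type. All cells were grown with LIF and serum. Tamoxifen, Cre activity, the labelled loss of the enhancer and any difference of the edited line from WT cells come together in both treated libraries. They cannot be told apart.

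p53 is a transcription factor that is stabilized by DNA damage and other stress and then switches on genes of cell cycle arrest, DNA repair and apoptosis. It binds as a tetramer to a pair of half-sites, and one of its targets, *Mdm2*, encodes the ubiquitin ligase that degrades it, so that the pathway holds itself in check. Mouse ESCs are known for a high level of p53 and for a weak p21 arrest after damage.

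Short stretches of the members' promoters are shown because they hold matches to the p53 half-site. In the RefSeq promoters (250 bases before to 50 after each gene start, build GRCm38.p6), 8 of the 10 members had an entry, with 11 promoters in all. *Trp53inp1* and *Ddb2* had none. The p53 half-site consensus is a palindromic motif of 10 bases that reads the same on both strands. Its core is CWWG, where W is A or T, with purines before it and pyrimidines after it. It matched exactly in 6 of these 8 genes, against 9.55% of the 27025 genes in the table. By promoter it matched in 6 of the 11, against 8.36% of all 32851 promoters. Each stretch reads 5′ to 3′ on the strand of its gene, with the half-site in capitals and the bases around it in lower case.
*Trp53*, chr11:69580254-69580323, plus strand: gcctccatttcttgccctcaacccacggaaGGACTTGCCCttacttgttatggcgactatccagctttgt
*Mdm2*, chr10:117710905-117710974, minus strand: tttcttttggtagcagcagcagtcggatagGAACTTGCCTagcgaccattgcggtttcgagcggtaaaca
*Cdkn1a*, chr17:29090876-29090967, plus strand: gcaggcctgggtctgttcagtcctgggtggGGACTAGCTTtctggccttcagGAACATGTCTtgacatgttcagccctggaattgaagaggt
*Ccng1*, chr11:40755432-40755501, minus strand: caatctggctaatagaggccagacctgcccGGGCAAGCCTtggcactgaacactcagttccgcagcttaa
*Gadd45a*, chr6:67037408-67037477, minus strand: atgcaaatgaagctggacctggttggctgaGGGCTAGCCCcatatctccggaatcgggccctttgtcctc
*Bax*, chr7:45467060-45467129, minus strand: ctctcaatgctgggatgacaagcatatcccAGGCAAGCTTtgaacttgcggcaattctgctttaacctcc
The half-sites began between 40 bases (*Gadd45a*) and 201 bases (*Bax*) before the gene start. *Cdkn1a* had 2 of them within one promoter, an arrangement (at most 13 bases between half-sites) found in 0.0731% of all promoters. The other promoter of *Cdkn1a*, the 3 promoters of *Bbc3* and the promoter of *Eda2r* held no exact half-site in these windows.

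Full sites of 20 bases are made of 2 adjoining half-sites. The C and G of each core were kept fixed (CNNG, where N is any base), and at most 2 mismatches to the consensus were allowed elsewhere. Such sites were searched in the mm9 genome (the build of the deposited tables) from 5 kb before to 5 kb after each gene start. They were found at 4 of the 10 members, against 10.02% of 19275 genes searched in the same way. With at most 1 mismatch they were found at 2 members, *Cdkn1a* and *Ccng1*, against 1.72% of genes. These sites are printed because they are the closest matches to the p53 element near the members. They read on the strand of the gene, with mismatches in lower case.
*Cdkn1a*, chr17:29227873-29227892, plus strand, 51 bases before the gene: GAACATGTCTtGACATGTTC
*Ccng1*, chr11:40568964-40568983, minus strand, 170 bases before the gene: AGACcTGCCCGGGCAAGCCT
*Ccng1*, chr11:40568438-40568457, minus strand, 356 bases after the gene start, in an intron: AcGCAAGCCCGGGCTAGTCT
*Eda2r*, chrX:94571873-94571892, minus strand, 663 bases after the gene start, in an intron: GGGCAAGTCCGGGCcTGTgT
*Bax*, chr7:52721944-52721963, minus strand, 305 bases after the gene start, in a non-coding exon: GGGCAgGCCCGGGCTTGTCg
These letters are a description of sequence, and binding was not measured. Sites of p53 that lie farther out, that have bases between the half-sites or that differ more from the consensus are outside this search. The site of *Ccng1* before the gene and that of *Cdkn1a* hold half-sites printed above.

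The depth and the identity of the libraries were checked first. Levels are FPKM (fragments of a gene relative to transcript length and library size). Genes with a single transcript showed steps at low levels, from which 1 fragment in 1 kb came to 0.0740 FPKM in WT, 0.1599 FPKM in Tam and 0.129 FPKM in DoxTam, or about 13500000, 6250000 and 7750000 fragments. *Pou5f1*, the gene of *Oct4*, stood at 664, 529 and 458 FPKM in the same order, so Tam kept most of the WT level although its enhancer is labelled as deleted, and DoxTam, labelled with the induced transgene, held the lowest value. With each library rescaled to a common sum of FPKM, all 8 ESC markers, *Pou5f1* included, stood above their Tam level in DoxTam. This scaling raised genes in general, with a median log2 fold of DoxTam against Tam of 0.15 over these markers and 0.17 over all genes. Without small RNA genes in the sum the medians were -0.016 and 0.024. The order of the treated libraries thus depended on the scaling, and the markers did not rise beyond the median of all genes. The paper reports PCR genotyping of the deletion, and qPCR with *Oct4* almost lost after tamoxifen and restored with doxycycline. As deposited, the levels here show neither that loss nor that rise. In these libraries the deletion and the transgene rest on the labels. The 8 ESC markers summed to 2832, 2589 and 2588 FPKM, each at 98.96 FPKM or more. The 8 trophectoderm markers summed to 27.2, 33.7 and 28.4 FPKM, with 4, 6 and 4 at 1 FPKM or more, and the defining *Cdx2* stood at 0.639, 2.82 and 0.128 FPKM. The 8 primitive endoderm markers summed to 112, 137 and 98.5 FPKM, nearly all of it from *Sparc*. The 8 fibroblast markers summed to 6.63, 4.998 and 3.74 FPKM, with 3 at 0 in WT and in DoxTam. The part of other cell types in the results was not tested.

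Folds are log2 ratios of FPKM + 1. Genes at 1 FPKM or more in either library were kept, and higher or lower means by at least 1.5-fold (0.58 on the log2 scale). With 1 library per condition there is no replicate spread and no test of a difference between conditions. From the approximate number of fragments behind each level, a 95% counting interval of the log2 ratio of FPKM was computed, which covers counting error only and understates the true error. In bulk RNA a change in the share of cells that express a gene and a change of RNA per cell cannot be told apart.

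All 10 members were expressed in every library, with levels from 6.93 FPKM (*Ddb2* in WT) to 181 FPKM (*Bax* in WT). In WT the order per length was *Bax* (181 FPKM), *Trp53* (114 FPKM), *Ccng1* (100.2 FPKM), *Mdm2* (95.9 FPKM), *Trp53inp1* (60.6 FPKM), *Gadd45a* (42.1 FPKM), *Bbc3* (38.2 FPKM), *Eda2r* (27.7 FPKM), *Cdkn1a* (18.5 FPKM) and *Ddb2* (6.93 FPKM). *Bax* and *Trp53* lay above 97.2% and 95.02% of the genes at 1 FPKM or more, whereas *Cdkn1a* lay above 65.4% and *Ddb2* above 37.4%. In Tam and DoxTam *Ccng1* and *Trp53inp1* stood above *Trp53* and *Mdm2*, an order that WT did not have. *Gadd45a* and *Bbc3*, which stood above *Eda2r* in WT, were below it in both treated libraries. One library per condition gives no spread against which to judge neighbours in this order, such as *Ccng1* and *Mdm2* in WT.

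**Figure D1:**
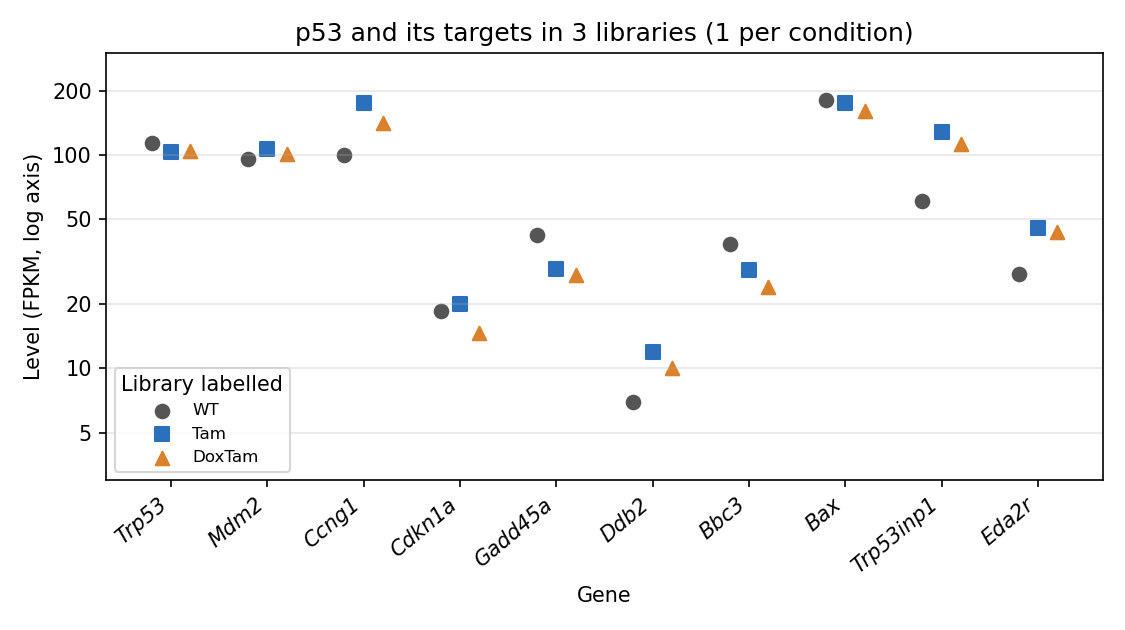
Levels of *Trp53* and 9 of its targets (y axis, FPKM on a log axis) in the libraries labelled WT (circles), Tam (squares) and DoxTam (triangles), 1 library per condition. For *Ccng1*, *Ddb2*, *Trp53inp1* and *Eda2r* the WT level lies below both treated levels, whether or not by 1.5-fold. For *Gadd45a* and *Bbc3* it lies above both, and *Trp53*, *Mdm2* and *Bax* differ little.

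*Trp53* itself was at 114 FPKM in WT and at 104 FPKM in both treated libraries. The log2 folds against WT were -0.13 and -0.12, both well inside 1.5-fold. The counting intervals of the log2 ratio, -0.23 to -0.038 for Tam and -0.21 to -0.033 for DoxTam, stayed below 0, but with the FPKM of each library rescaled to a common sum the folds were 0.011 and 0.24. The medians of all genes were 0.021 and -0.0028 as deposited and 0.15 and 0.32 with the common sum. The sign of the *Trp53* fold thus depended on the scaling, while its value lay below the median of all genes under both. With the GC trend removed it was -0.061 and 0.0043, beside 0.018 and -0.0065 over all genes, so in DoxTam it was no longer below. p53 is regulated mainly through the stability of its protein, which RNA-seq does not measure. Its relatives were near absent, with *Trp63* at 0.0141, 0.516 and 0.0248 FPKM and *Trp73* at 1.24, 1.09 and 0.807 FPKM in WT, Tam and DoxTam.

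The feedback genes did not move together. *Mdm2* was at 95.9 FPKM in WT, 106 FPKM in Tam and 101 FPKM in DoxTam, log2 folds of 0.15 and 0.070. Its counting interval for Tam, 0.073 to 0.23, stayed above 0. That for DoxTam reached from -0.0014 to 0.14, so the DoxTam difference was not detectable at this depth. *Ccng1* encodes cyclin G1, which brings the phosphatase PP2A to MDM2. It was at 100.2 FPKM in WT, 175 FPKM in Tam and 140 FPKM in DoxTam, so both treated libraries were above WT. Its log2 fold was 0.80 in Tam (counting interval 0.74 to 0.87), higher by 1.5-fold, and 0.48 in DoxTam (0.42 to 0.55), inside it. *Mdm4*, the partner of *Mdm2* that holds p53 inactive, was at 50.03, 72.4 and 78.9 FPKM, log2 folds of 0.52 and 0.65. The ratio of *Mdm2* to *Mdm4* per length went from 1.92 in WT to 1.47 in Tam and 1.28 in DoxTam.

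The genes of growth arrest were not higher by 1.5-fold in either treated library. *Cdkn1a*, which encodes the cyclin-dependent kinase inhibitor p21, was at 18.5 FPKM in WT, 20.04 FPKM in Tam and 14.7 FPKM in DoxTam. Tam was slightly above WT (0.11, counting interval -0.11 to 0.34) and DoxTam below it (-0.32, -0.57 to -0.10), neither by 1.5-fold. *Gadd45a* encodes a small stress protein that takes part in arrest at the G2/M boundary. It was at 42.1 FPKM in WT, 29.2 FPKM in Tam and 27.4 FPKM in DoxTam, and so lay below WT in both. Its log2 folds were -0.51 (-0.74 to -0.31) in Tam and -0.60 (-0.83 to -0.41) in DoxTam, the latter lower by 1.5-fold. *Gadd45b*, its paralog, was at 5.95, 8.05 and 6.15 FPKM, and the ratio of *Gadd45a* to *Gadd45b* went from 7.07 in WT to 3.63 and 4.45. *Gadd45a* shares exon sequence with the antisense gene *E230016M11Rik*, and the libraries came from a stranded kit, but the counting options are not given in the sources used here.

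*Ddb2*, a sensor of ultraviolet damage in nucleotide excision repair, was the DNA repair gene of the list and its least abundant member. It was at 6.93 FPKM in WT, 11.9 FPKM in Tam and 10.04 FPKM in DoxTam, both above WT. These levels rest on about 209, 166 and 173 fragments. The log2 fold was 0.71 in Tam, higher by 1.5-fold, and 0.48 in DoxTam, inside it, with counting intervals of 0.49 to 1.08 and 0.24 to 0.83. With a pseudocount of 5 FPKM the Tam value was 0.51. Exons of *Ddb2* overlap those of the antisense gene *Acp2*.

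The apoptosis genes lay on both sides of WT. *Bbc3*, which encodes the BH3-only protein PUMA, was at 38.2 FPKM in WT, 28.7 FPKM in Tam and 24.1 FPKM in DoxTam, log2 folds of -0.40 and -0.64. Both treated libraries were below WT, and DoxTam was lower by 1.5-fold. *Bax*, the pore-forming effector of mitochondrial apoptosis, was at 181, 175 and 160 FPKM (-0.054 and -0.18), and its counting interval included 0 for Tam (-0.15 to 0.046). *Trp53inp1* encodes a stress protein that favours p53 activity and autophagy. It was at 60.6 FPKM in WT, 129 FPKM in Tam and 112 FPKM in DoxTam, so that the treated libraries stood at 2.12 and 1.85 times WT. Its log2 folds, 1.07 (counting interval 1.02 to 1.15) and 0.88 (0.83 to 0.95), were the highest of the 10 members in each comparison. Its levels rest on about 4426, 4343 and 4700 fragments. Among all genes it ranked 216 from the top of 12705 for Tam and 124 of 12384 for DoxTam. *Eda2r*, a receptor of the TNF receptor family for ectodysplasin A2, was at 27.7 FPKM in WT, 45.3 FPKM in Tam and 43.5 FPKM in DoxTam. Its log2 folds were 0.69 and 0.63, higher by 1.5-fold in both.

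**Figure D2:**
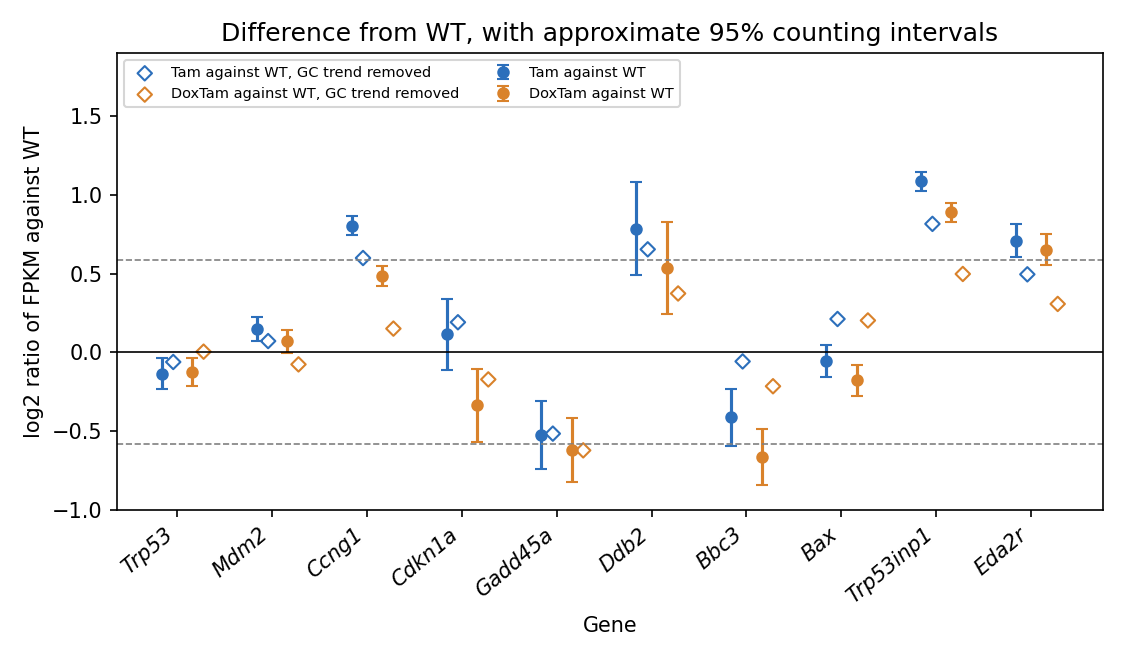
Log2 ratio of FPKM against WT (y axis) for the 10 genes in the libraries labelled Tam (blue) and DoxTam (orange). Filled circles are deposited levels with approximate 95% counting intervals, which leave out variation between cultures, open diamonds are log2 folds of FPKM + 1 after removal of the GC trend, and dashed lines mark 1.5-fold. In DoxTam the diamonds of *Trp53inp1*, *Ccng1* and *Eda2r* lie inside the dashed lines, and that of *Gadd45a* stays just outside.

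In Tam against WT, 4 of 10 members were higher by 1.5-fold (*Trp53inp1*, *Ccng1*, *Ddb2* and *Eda2r*) and 0 were lower. Of all 12705 genes measured, 6.98% were higher and 3.59% lower. The median log2 fold was 0.13 over the members and 0.021 over all genes. In DoxTam against WT, 2 members were higher (*Trp53inp1* and *Eda2r*) and 2 were lower (*Bbc3* and *Gadd45a*), with 4.12% of 12384 genes higher and 5.78% lower. The medians were -0.026 over the members and -0.0028 over all genes. Both comparisons share the WT library, so the values of each are given side by side and their likeness is no result.

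Rescaling the FPKM of each library to a common sum (the same total) moved the median of all genes to 0.15 for Tam and 0.32 for DoxTam. The small RNA gene *Mir6236* made up 43.1%, 35.3% and 27.4% of that sum in WT, Tam and DoxTam. Higher and lower genes then numbered 1412 (11%) and 272 (2.11%) for Tam, compared with 887 and 456 as deposited, and 2784 (22%) and 222 (1.76%) for DoxTam, compared with 510 and 716. The members were then 4 higher and 0 lower in each comparison, with *Ccng1* (0.84) and *Ddb2* (0.81) past 1.5-fold in DoxTam and *Bbc3* (-0.30) and *Gadd45a* (-0.25) inside it. Their medians were 0.27 for Tam and 0.33 for DoxTam, to be read against the shifted medians of all genes. When small RNA genes were left out of the sum, every member kept its side of 1.5-fold, with 5.93% of genes higher and 4.49% lower for Tam and 4.05% and 5.85% for DoxTam.

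The folds followed the GC content of the transcripts. Over all genes, the median log2 fold went from 0.24 in the 10% of genes lowest in GC content to -0.19 in the 10% highest in it for Tam, and from 0.34 to -0.34 for DoxTam. The members were spread along the same axis, with *Trp53inp1* (38.8% GC), *Ccng1* (40.8%) and *Eda2r* (40.9%) at the low end and *Bax* (62.6%) and *Bbc3* (65.2%) at the high end. Over the 10 members the correlation of fold with GC content was -0.79 for Tam and -0.82 for DoxTam (Pearson), and -0.81 and -0.89 (Spearman), over genes of the same libraries. The members with long transcripts were also the ones with high folds (Spearman 0.87 and 0.88, n = 10), and over all genes the median fold was 0.046 in the shortest 10% and 0.028 in the longest 10% for Tam, and -0.0013 and 0.053 for DoxTam.

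After the GC trend was removed, 3 members were higher in Tam, *Trp53inp1* (0.82), *Ddb2* (0.65) and *Ccng1* (0.60), and 0 were lower, against 5.6% and 2.02% of the 11292 genes with a GC value. *Eda2r* was at 0.50. In DoxTam 0 members were higher, against 2.05% of 11047 genes. *Trp53inp1* was then at 0.50, *Ddb2* at 0.37, *Eda2r* at 0.31 and *Ccng1* at 0.15. *Bbc3* came to -0.058 in Tam and -0.22 in DoxTam. *Gadd45a*, with a GC content of 49.8%, hardly moved, at -0.52 and -0.62, and was the 1 member lower by 1.5-fold in DoxTam, against 2.24% of genes. *Bax* turned positive in both (0.21 and 0.20). *Mdm2* was at 0.072 and -0.076, *Cdkn1a* at 0.19 and -0.17, and *Trp53* at -0.061 and 0.0043. The medians over the members were 0.20 for Tam and 0.077 for DoxTam.

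**Figure D3:**
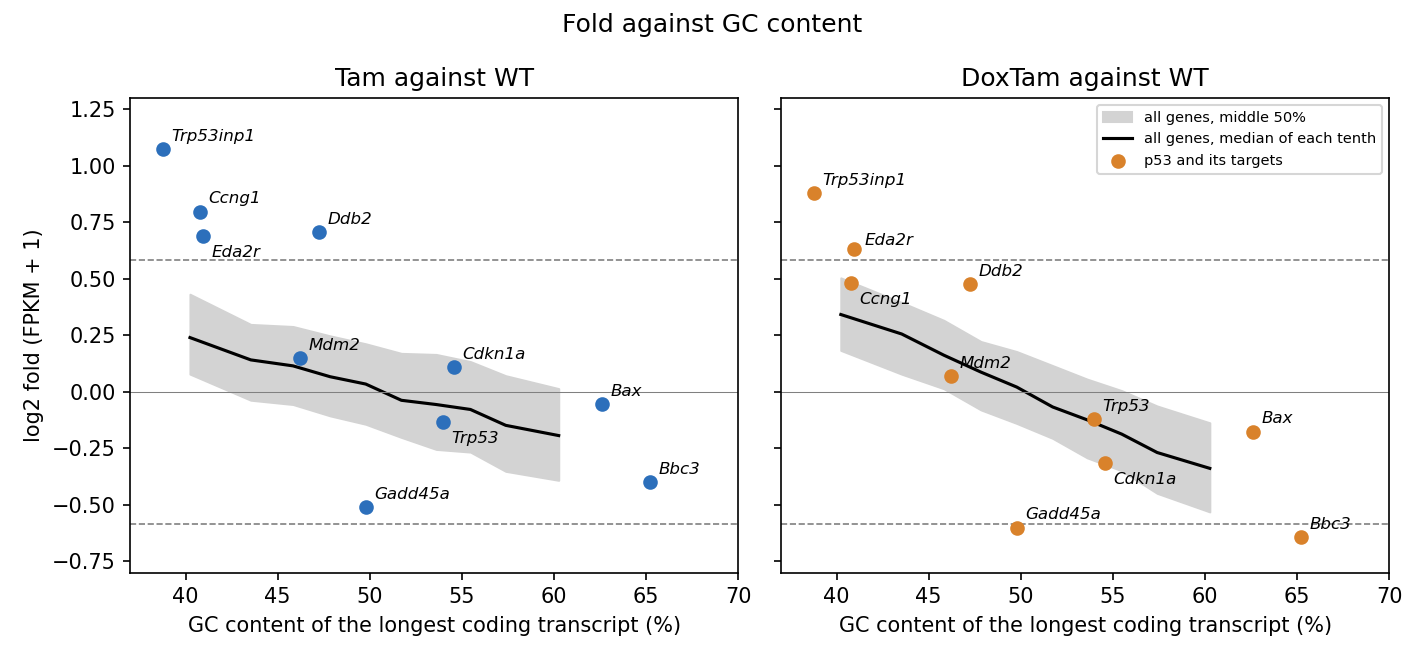
Log2 fold against WT (y axis) and GC content of the longest coding transcript (x axis) for the 10 genes in the libraries labelled Tam (left, blue) and DoxTam (right, orange). The black line is the median of all genes in 10 bins of GC content, the grey band their middle 50%, and the dashed lines 1.5-fold. In DoxTam *Ccng1* lies inside the grey band, *Ddb2* lies above the band and *Gadd45a* below it in both panels, and *Trp53inp1*, *Bax* and *Bbc3* lie beyond its ends.

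Between the treated libraries, 0 of 10 members reached 1.5-fold in either direction. As deposited, 9 of 10 log2 folds of DoxTam against Tam were below 0 and that of *Trp53* was 0.012. With the common sum 4 were below 0 and 6 above, so the signs depended on the scaling, which moved all genes. The share of all genes below 0 was not counted. Of 12647 genes, 2.09% were higher and 5.74% lower in this comparison. *Cdkn1a* had the lowest value, -0.43 (counting interval -0.72 to -0.19), followed by *Ccng1* at -0.32 (-0.38 to -0.25), *Bbc3* at -0.24 and *Ddb2* at -0.23. *Trp53inp1* was at -0.19 and *Eda2r* at -0.057. The counting intervals of *Trp53*, *Mdm2*, *Ddb2*, *Eda2r* and *Gadd45a* included 0. The median was -0.16 over the members and -0.019 over all genes, and 0.055 and 0.17 after rescaling to a common sum. Without small RNA genes in the sum the medians were -0.11 and 0.024, and with the GC trend removed -0.16 and -0.018. In each setting the member median thus lay below that of all genes, which was not tested. None of the other scalings run brought a member past 1.5-fold, where 6.02% of genes were higher and 4.3% lower with the common sum, 2.53% and 5.09% without small RNA genes in it, and 1.48% and 4.69% once the GC trend was taken out. Levels of these libraries come from separate tables, whose WT levels differed by more than 1% for 2 genes. As deposited, *Pou5f1* stood below its Tam level in DoxTam, but above it with the common sum, which also raised the median of all genes. *Cdx2*, a trophectoderm gene named after its values were seen, was at 2.82 FPKM in Tam and 0.128 FPKM in DoxTam, with WT between them. Of 6 trophectoderm markers kept for DoxTam against Tam, 2 were lower and 0 higher, and 2 lay above 0. Any effect of the transgene on these genes was not tested.

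Other direct p53 targets were taken from a wider list. Of 50 listed genes, all found in the tables (*Tigar* under an older symbol), 46 were measured for Tam, with 2 higher and 1 lower, where 6.98% and 3.59% of all genes were higher and lower. The higher genes were *Rps27l*, a ribosomal protein paralog, at 0.68 (130 FPKM in WT, 209 FPKM in Tam, 177 FPKM in DoxTam), and *Lif*, the self-renewal cytokine of ESCs, at 0.62 (1.14 FPKM and 2.29 FPKM). The lower gene was *Igfbp3*, an IGF-binding protein, at -0.61. For DoxTam 45 were measured, with 0 higher and 2 lower (4.12% and 5.78% of all genes). The lower genes were *Gdf15*, a stress cytokine, at -0.76 (4.89 FPKM in WT, 2.49 FPKM in DoxTam), and *Triap1*, a small p53-regulated inhibitor of apoptosis, at -0.61 (12.3 and 7.69 FPKM). The medians were 0.0056 for Tam and -0.063 for DoxTam, beside 0.021 and -0.0028 over all genes. After removal of the GC trend *Rps27l* was at 0.55 in Tam and *Gdf15* at -0.40 in DoxTam, both inside 1.5-fold. *Igfbp3* was likewise inside it in Tam (-0.55), whereas *Lif* (0.68) and *Triap1* (-0.62 in DoxTam) stayed past it. *Dcxr*, a carbonyl reductase named after its value was seen, came to 0.66 in Tam, so that 2 wider targets were still higher there. Between the treated libraries 0 wider targets were higher and 1 was lower, *Triap1* (-0.62), beside 2.09% and 5.74% of all genes, with a median of -0.20 beside -0.019 over all genes.

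Among targets to be named whatever their value, none reached 1.5-fold in Tam. *Zmat3*, an RNA-binding protein of p53 tumour suppression, was at 30.9, 30.5 and 29.1 FPKM in WT, Tam and DoxTam (-0.017 and -0.080). *Phlda3*, an inhibitor of AKT signaling, was at 46.2, 48.2 and 35.5 FPKM (0.059 and -0.37). *Aen*, an apoptosis nuclease, was at 36.3, 47.9 and 36.2 FPKM (0.39 and -0.0043). *Btg2*, an antiproliferative gene, was at 18.3, 21.2 and 18.3 FPKM (0.20 and -0.0020). *Sesn2*, a stress sensor of amino acid supply, was at 62.2, 53.1 and 43.1 FPKM (-0.22 and -0.52). *Pmaip1*, which encodes the BH3-only protein NOXA, was at 5.55, 4.73 and 6.58 FPKM (-0.19 and 0.21). *Fas*, a death receptor, was at 0.237 FPKM or less in each library, under the filter of 1 FPKM. As among the 10 members, values of single targets lay on both sides of WT.

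The other lists of the pathway are read against the same shares of all genes (6.98% higher and 3.59% lower in Tam, 4.12% and 5.78% in DoxTam). Of 29 measured regulators of the p53 protein, 0 were higher or lower in Tam. In DoxTam 2 were higher, *Rpl23* (0.72, 571 FPKM in WT and 939 FPKM in DoxTam), a ribosomal protein that binds MDM2, and *Mdm4* (0.65), and 0 were lower. The medians of this list were 0.052 and 0.11, beside 0.021 and -0.0028 over all genes. The values were 0.575 for *Rpl23* and 0.38 for *Mdm4* after removal of the GC trend, inside 1.5-fold. Between the treated libraries 1 of the 29 regulators was higher in DoxTam, *Sirt1* (0.76), a deacetylase of p53. Another 1 was lower, *Cdkn2a* (-0.71), the locus of ARF, beside 2.09% higher and 5.74% lower of all genes. Of 10 measured paralogs of the members (a list that shares *Mdm4*, *Trp73*, *Bak1* and *Bok* with others), *Bok* was lower in both comparisons (-0.68 and -0.68), from 4.05 FPKM in WT to 2.16 and 2.15 FPKM, on about 78, 19 and 24 fragments, and *Mdm4* was the 1 paralog higher in DoxTam. The paralog medians were 0.064 and -0.0069. Of 12 measured genes of the BCL-2 family beyond *Bax* and *Bbc3*, 2 were lower in Tam, *Bok* and *Bik* (-0.63, 2.05 FPKM in WT and 0.967 FPKM in Tam, with a counting interval of -2.36 to 0.20), and *Bok* alone in DoxTam. Neither stayed past 1.5-fold once the GC trend was taken out. The medians of this family were -0.20 and -0.10. The ratio of *Bax* to the survival gene *Bcl2l1* per length was 7.28 in WT, 6.25 in Tam and 6.49 in DoxTam.

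Cell-cycle genes that p53 lowers through p21 and the DREAM repressor complex were also followed. Of 24 genes, 0 were higher or lower in Tam, and 1 was lower in DoxTam, *Cenpf*, beside 3.59% and 5.78% of all genes lower in these comparisons. *Cenpf*, a kinetochore gene, was at -0.76 (33.9 FPKM in WT, 33.5 FPKM in Tam, 19.6 FPKM in DoxTam) and -1.02 after removal of the GC trend. In Tam 19 of 24 were below 0 with a median of -0.16, and in DoxTam 17 of 24 with a median of -0.12, beside 0.021 and -0.0028 over all genes. After rescaling to a common sum 13 of 24 were below 0 in Tam and 6 in DoxTam. The medians were then -0.015 and 0.24, beside 0.15 and 0.32 over all genes. With the GC trend removed they were -0.16 and -0.21, beside 0.018 and -0.0065 over all genes. The share of all genes below 0 was not counted.

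**Figure D4:**
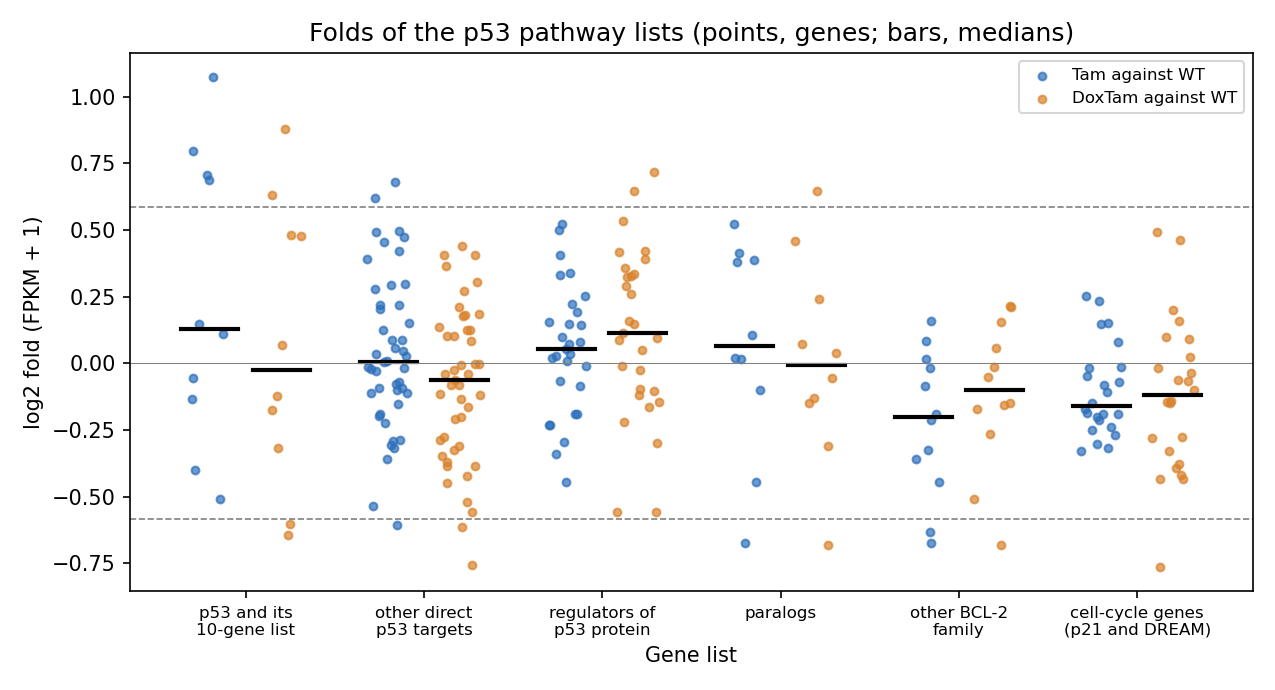
Log2 folds against WT (y axis, FPKM + 1) of the genes in each fixed list (x axis) in the libraries labelled Tam (blue) and DoxTam (orange), with medians as black bars and 1.5-fold as dashed lines. The 10-gene list spans -0.51 to 1.07 in Tam and -0.64 to 0.88 in DoxTam, and the wider target list spans -0.61 to 0.68 and -0.76 to 0.44.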

How the data were processed

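RNA-seq libraries were made with a stranded TruSeq kit from total RNA of 3 samples, 1 per condition, and groups follow the sample titles. The authors deposited FPKM values in 2 tables (Tam with WT, DoxTam with WT), made with TopHat, Bowtie (versions not given in the sources used here) and Cufflinks 2.0.0 on mm9 by the submitters' processing notes. Columns of the authors' fold changes, test statistics, p-values and q-values were not used, and the status column served only as an alternative filter. The tables hold 23953 genes in the same order of loci. WT levels differed by over 1% for 2 genes, so levels of both tables were set side by side, and 27 symbols differed.

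Folds are log2((FPKM + 1)/(FPKM + 1)), kept at 1 FPKM or more in either library and called at 1.5-fold. Fragments per gene were estimated as FPKM times the length of the longest coding transcript (GENCODE, mm9) over the FPKM of 1 fragment in 1 kb, taken from the lowest step of genes with 1 transcript, and are approximate. A lowess curve of fold on GC content (span 0.2, statsmodels 0.14.6) was subtracted and the median fold added back. Folds and lowess were tested on simulated data. The members, gene lists and tests were chosen with earlier results of these data known. Named genes are all members, up to 4 called genes of each list and comparison (the 2 highest and the 2 lowest), and *Mdm4*, *Pmaip1*, *Fas*, *Zmat3*, *Phlda3*, *Aen*, *Sesn2*, *Btg2* and *Gdf15*, with *Pou5f1* as the check of the labels. Further genes (*Trp63*, *Trp73*, *Gadd45b*, *Bcl2l1*, *Cdx2*, *Sparc* and *Dcxr*) were named after their values were seen. *Trp53rkb* was not matched. Alternatives were pseudocounts of 0.1 and 5 FPKM, no filter and a filter at 5 FPKM, centring, rescaling to the same total with and without 1202 small RNA genes, 2-fold, GC trend removal and status OK. Promoters come from RefSeq.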

Additional observations from a re-analysis of the deposited data

How the results depend on the processing

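Of 300 values of single members under the alternatives, 281 stayed on their side of the threshold, 17 dropped inside it, 2 moved past it and 0 turned direction after being called. No filter, the filter at 5 FPKM and status OK each left all 30 member values unchanged, because every member passes them. These values are counted among the 281 and say nothing of robustness. Of 194 list values, 145 stayed within 1.5 times of a count or 0.1 of a median. At 2-fold the members higher numbered 1 for Tam and 0 for DoxTam and the members lower in DoxTam 0, and the wider targets gave 0 in both directions for Tam, 0 lower for DoxTam and 0 lower between the treated libraries. With a pseudocount of 5 FPKM 1 member was higher and 0 lower in DoxTam, and of the wider targets 1 was higher and 0 lower in Tam, 0 lower in DoxTam and 0 lower between the treated libraries. A pseudocount of 0.1 FPKM gave 4 wider targets lower in DoxTam, 4 lower and 1 higher between the treated libraries, and 4 regulators and 5 paralogs called over both comparisons. Removal of the GC trend gave 0 members higher and 1 lower in DoxTam with a median of 0.077, 0 wider targets lower in Tam, 1 lower in DoxTam and 1 higher between the treated libraries, and 0 regulators and 0 BCL-2 family genes called. Rescaling to the same total gave 4 members higher and 0 lower in DoxTam, member medians of 0.27 (Tam), 0.33 (DoxTam) and 0.055 (between the treated libraries), wider target medians of 0.13, 0.27 and 0.0049, 6, 6 and 4 wider targets higher and 0 lower in each, and 14 regulators, 0 BCL-2 family genes and 2 cell-cycle genes called. Without small RNA genes in that total, 1 wider target was higher and 0 lower between the treated libraries, and centring also gave 1 higher. A filter at 5 FPKM left 1 wider target higher in Tam and 1 lower in DoxTam, and status OK left 1 higher in Tam. The causes were not tested, beyond the smaller number of genes under a filter. No paired analysis was possible because each condition has 1 library. Of the called genes named, *Bik*, *Bok*, *Gdf15*, *Lif*, *Igfbp3*, *Triap1* and *Cdkn2a* rest on fewer than 100 fragments in at least 1 treated library. So does *Dcxr*, past 1.5-fold in Tam with the GC trend removed but not as deposited, with about 94 fragments in Tam and 80 in DoxTam.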
